A study of Homo sapiens with 15 samples.

Results

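This account follows 37 genes of pericellular proteolysis in A375, an established human melanoma cell line, across 15 polyadenylated RNA libraries. The genes encode matrix metalloproteases (MMPs), plasminogen activators, ADAMTS and ADAM proteases, their inhibitors, and a hyaluronan-degrading protein, and they were taken by symbol from tables of 20332 genes in the starvation set and 20323 genes in the overexpression set. All 37 symbols were found in every table. In the starvation set, cells starved for 48 hours in 0.1% fetal bovine serum (FBS, 3 libraries) were compared with cells in 10% FBS (3 libraries). In the overexpression set, 3 libraries each came from cells with caMKL1, a constitutively active form of MKL1, with MKL1, or with a control vector, all for 48 hours. No serum level is recorded for this set. The labels name neither the vector, its promoter nor a clone, and they do not say that the 3 libraries of a group came from separate cultures, so p-values may measure technical spread only. The study's title speaks of T cell killing, whereas its labels describe tumour cells alone.

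Matrix metalloproteases are zinc enzymes that cut collagens, laminins and other matrix proteins; most are made as inactive precursors, and some are anchored in the cell membrane. Tissue inhibitors of metalloproteases (TIMPs) bind their active sites, plasminogen activators turn plasminogen into plasmin, and serpins and alpha-2-macroglobulin trap proteases of several classes. In melanoma these enzymes are known for remodelling matrix at the cell surface and for shedding receptors and ligands. MKL1, approved symbol MRTFA, is an actin-binding coactivator of serum response factor (SRF), which reads CArG boxes in promoters. RNA levels say nothing of how much enzyme was active or secreted.

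The libraries held 13937251 to 17178725 counts in the starvation set and 16557803 to 23957043 in the overexpression set, so that 3 counts, taken as the floor of detection, amounted to 0.125 to 0.215 CPM (counts scaled to a common library size). MRTFA, the overexpressed gene, reached 481, 463 and 465 CPM in caMKL1 libraries and 732, 771 and 709 CPM in MKL1 libraries, against 26.2, 25.7 and 25.7 CPM for the control vector. Of 8 melanocyte lineage markers, 3 or 4 reached 1 CPM in each group, SOX10 among them, while TYR stayed under 0.1 CPM in every library; 7 lymphocyte markers summed to at most 1.86 CPM. Summed levels of 6 neutrophil and macrophage markers were 56.6 to 62.1 CPM with caMKL1, 40.1 to 44.3 CPM with MKL1 and 20.9 to 28.2 CPM with the control vector; nearly all of it was CD68, and MPO and ELANE had no counts in these 9 libraries. The sums of 8 fibroblast markers were 29.9 to 32.6 CPM with caMKL1, 24.2 to 30.6 CPM with MKL1 and 22.3 to 23.3 CPM with the control vector, and 31.0 to 37.4 CPM in 0.1% FBS and 33.6 to 37.3 CPM in 10% FBS. Those of 5 epithelial markers were 168.5 to 173.7 CPM with caMKL1, 204.7 to 228.1 CPM with MKL1 and 228.0 to 234.5 CPM with the control vector, and 196.9 to 206.2 CPM in 0.1% FBS and 389.4 to 440.7 CPM in 10% FBS. The part of these markers in the results was not tested. Control vector library 1 and 10% FBS library 2 differed most from their own replicates, and 24 members were called with caMKL1 and 15 with MKL1 without the first, and 25 in starvation without the second.

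In starved cells A2M, CEMIP, MMP10, MMP1, ADAMTS9 and ADAMTS1 rose by more than 1 on the log2 scale, as did MMP24 at a mean of under 1 CPM, and CPA4, SERPINA3, MMP15, MMP8 and TIMP3 fell by more than 1. Of the 37 genes, 33 had enough counts to test, and 25 passed an adjusted p of 0.05 (edgeR's quasi-likelihood test, Benjamini-Hochberg adjustment over all genes): 15 were higher and 10 lower in 0.1% FBS. Among all 13307 genes tested 62.6% passed, 31.2% higher and 31.4% lower, so that passing alone sets few genes apart here. With a change of at least 2-fold added, 12 of the 33 passed, against 7.5% of all genes: 7 members were higher, against 4.75%, and 5 lower, against 2.75%. Changes below are log2 fold changes ± SE with the adjusted p of this test. In bulk libraries a change in the share of expressing cells and a change per cell cannot be told apart. The median size of the log2 fold change in starvation, without its sign, was 0.60 over the members and 0.30 over all genes tested. It was 0.42 and 0.29 with caMKL1, 0.25 and 0.15 with MKL1, and 0.22 and 0.21 between caMKL1 and MKL1. The members were chosen with earlier results of these data known.

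With caMKL1, 31 members were tested and 25 passed, 11 higher and 14 lower than with the control vector, beside 63.6% of all genes, 30.5% higher and 33.1% lower. At least 2-fold were the rises of A2M, TIMP3, ADAMTS6, ADAMTS12 and TIMP2 and the falls of SERPINF1, MMP8 and MMP1, which are 8 of 31 members against 9.46% of all genes. Split by direction, these are 5 risen members against 8.02% of all genes and 3 fallen ones against 1.44%. With MKL1, 16 of 31 members passed, 6 higher and 10 lower, beside 31.2% of all genes, 15.8% higher and 15.4% lower. On library totals without scaling factors the split was 8 higher and 8 lower, and without MKL1 library 3 the count was 11 members. SERPINF1 alone among the members changed at least 2-fold with MKL1, against 1.32% of all genes, of which 1.01% were higher and 0.313% lower. These comparisons share the 3 control vector libraries. Between caMKL1 and MKL1, in a fit of all 9 overexpression libraries, 17 of 31 members passed, 6 higher and 11 lower with caMKL1, beside 52.2% of all genes, 25.2% higher and 27% lower. At least 2-fold, 3 members were higher (A2M, TIMP2 and ADAM19) and 3 lower (MMP8, MMP1 and SERPINF1), against 6.8% of all genes, 5.78% higher and 1.02% lower. MMP3, MMP9, SERPINB2 and ADAMTS5 had too few counts to test in either set, and MMP10 and PLAU too few in the overexpression set.

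**Figure D1:**
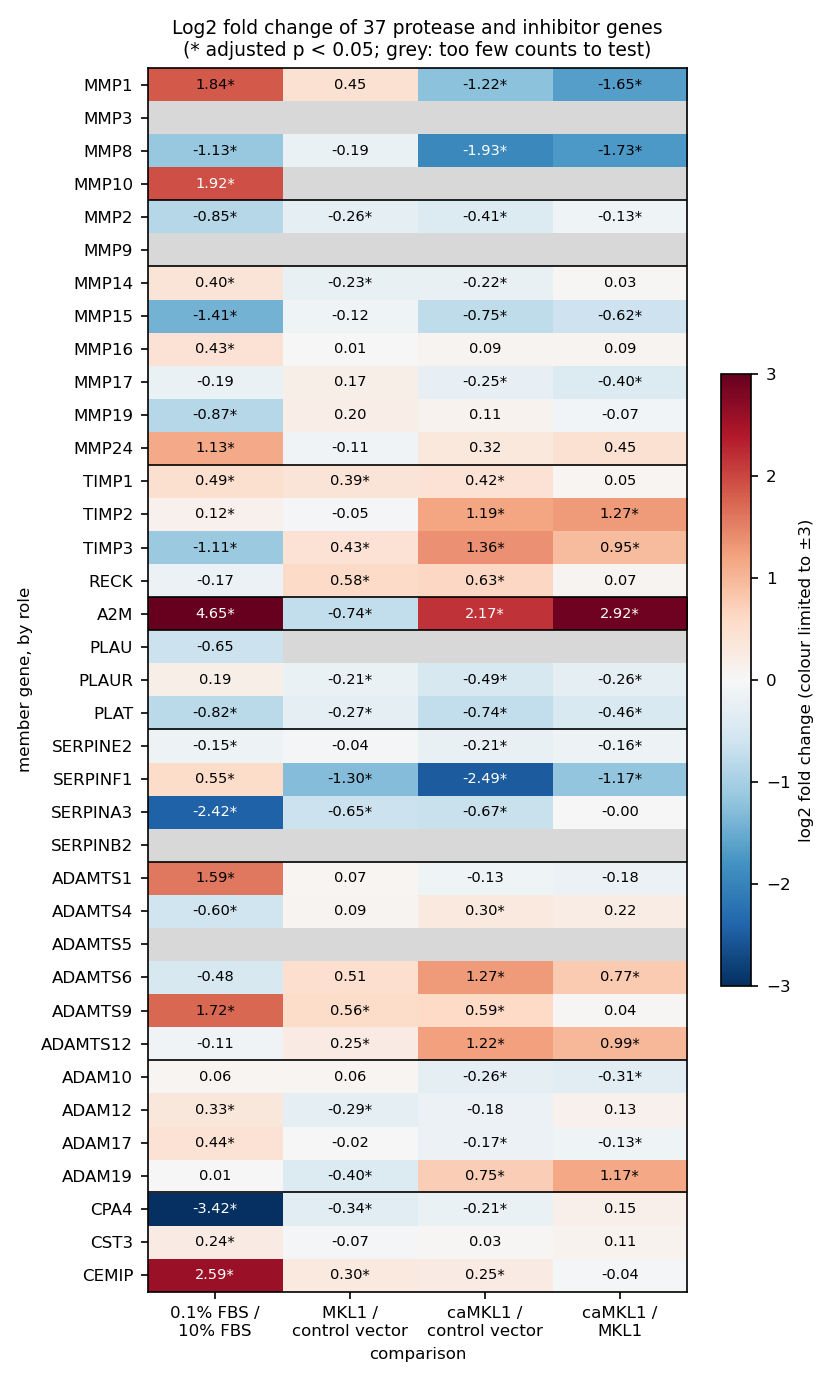
Log2 fold change of each of the 37 genes (rows, grouped by role) in the 4 comparisons (columns), coloured with the scale limited to ±3; a star marks an adjusted p under 0.05 and grey a gene with too few counts to test. A2M ran from 4.65 in starvation to -0.74 with MKL1, and the row of SERPINF1 was red in starvation and blue in the other 3 columns.

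The collagenases and stromelysins sit side by side in the genome: MMP8, MMP10, MMP1 and MMP3 lie in this order on the minus strand within chr11:102711795-102843803 (GENCODE annotation of GRCh38), a stretch of 132009 bases. MMP1, the interstitial collagenase that opens fibrillar collagen, had 90.9, 83.7 and 94.5 CPM in 0.1% FBS, against 21.9, 25.3 and 27.9 CPM in 10% FBS. All starved libraries lay above all libraries in full serum, with a log2 fold change of 1.84 ± 0.078 (adjusted p = 9.4e-11). MMP10, stromelysin-2, which cuts proteoglycans and activates other MMPs, had 4.99, 4.37 and 5.05 CPM in 0.1% FBS, against 1.35, 1.08 and 1.34 CPM in 10% FBS. Again no library overlapped, with a log2 fold change of 1.92 ± 0.20 (adjusted p = 9.58e-07). MMP8, the collagenase stored by neutrophils, went the other way, with 2.37, 1.32 and 0.854 CPM in 0.1% FBS, against 3.41, 3.91 and 2.82 CPM in 10% FBS. Its starved libraries spread widely but stayed below the others in CPM, and the log2 fold change was -1.13 ± 0.28 (adjusted p = 0.00311). In the authors' values per length (FPKM) the groups overlapped, at 1.16, 0.535 and 0.391 in 0.1% FBS, against 1.105, 1.704 and 1.011 in 10% FBS. MMP3, stromelysin-1, had 3 to 8 counts per library in 0.1% FBS and 7 to 14 in 10% FBS and was not tested.

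In the overexpression set MMP8 had 6.10, 5.85 and 5.99 CPM with caMKL1, 19.5, 19.9 and 20.2 CPM with MKL1 and 25.2, 22.4 and 21.2 CPM with the control vector. The caMKL1 libraries stood far below both other groups, by a log2 fold change of -1.93 ± 0.095 (adjusted p = 3.76e-10) against the control vector and of -1.73 ± 0.090 (adjusted p = 3.41e-11) against MKL1. MKL1 itself gave -0.19 ± 0.076 (adjusted p = 0.0730), which missed the threshold but passed it in the fit of 9 libraries (adjusted p = 0.0339) and without control vector library 3 (adjusted p = 0.0271). MMP8 fell while CD68, of the neutrophil and macrophage markers, was higher with caMKL1 (56.2, 56.1 and 61.8 CPM) than with the control vector (27.4, 20.2 and 21.9 CPM). CD14, of the same list, was lower, at 3 to 6 counts per library with caMKL1 and 10 to 15 with the control vector (adjusted p = 0.0233), and MPO and ELANE were at 0 in these libraries. The part of such cells in the result was not tested. MMP1 was scarce in this set, with 1.42, 1.09 and 1.36 CPM with caMKL1, 4.14, 4.53 and 3.59 CPM with MKL1 and 2.43, 2.75 and 3.85 CPM with the control vector. It fell with caMKL1, with a log2 fold change of -1.22 ± 0.24 (adjusted p = 0.000430) against the control vector and -1.65 ± 0.22 (adjusted p = 6.3e-06) against MKL1. Against the control vector, MKL1 gave 0.45 ± 0.19 (adjusted p = 0.0806), with library 3 of each group overlapping; without control vector library 3 it was 0.66 with an adjusted p of 0.0161. MMP10 and MMP3 had at most 12 counts in any of these 9 libraries.

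To set the neighbours that moved apart in starvation beside each other, the 250 bases before the RefSeq start (GRCh38.p14) of MMP8 and of MMP10 are shown, both on the minus strand and written 5′ to 3′; capitals mark TATAAA on the gene's strand, a TATA box.
MMP8, chr11:102724955-102725204: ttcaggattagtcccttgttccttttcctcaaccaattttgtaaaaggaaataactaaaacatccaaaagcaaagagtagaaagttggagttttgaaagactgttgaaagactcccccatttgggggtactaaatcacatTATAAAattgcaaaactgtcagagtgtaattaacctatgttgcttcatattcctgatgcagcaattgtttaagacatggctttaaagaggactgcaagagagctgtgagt
MMP10, chr11:102780629-102780878: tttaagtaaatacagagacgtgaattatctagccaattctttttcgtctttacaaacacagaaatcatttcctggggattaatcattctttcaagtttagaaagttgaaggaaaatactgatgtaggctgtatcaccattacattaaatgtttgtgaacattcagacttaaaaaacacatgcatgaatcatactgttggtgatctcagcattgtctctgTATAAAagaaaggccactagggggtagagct
The match lies 31 to 26 bases before the start in MMP10 and 110 to 105 bases before it in MMP8, whose RefSeq start lies inside the GENCODE span of the gene. Of 35116 RefSeq promoters of the same length, 6.80% hold TATAAA on the gene's strand. In neither window was TGACTCA, the AP-1 motif, found on either strand, which says only that these letters are not in these bases.

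The gelatinases cut denatured and basement membrane collagen. MMP2, the gelatinase these cells expressed, had 142, 139 and 136 CPM in 0.1% FBS, against 248, 263 and 239.7 CPM in 10% FBS. The groups were well separated, and MMP2 fell in 0.1% FBS with a log2 fold change of -0.85 ± 0.046 (adjusted p = 1.48e-09). In the other set it had 146, 135 and 139.5 CPM with caMKL1, 159, 150.2 and 151 CPM with MKL1 and 197, 180.2 and 181 CPM with the control vector. Both overexpression groups lay below the control vector, with log2 fold changes of -0.41 ± 0.049 (adjusted p = 4.94e-06) for caMKL1 and -0.26 ± 0.049 (adjusted p = 0.00152) for MKL1. The small step from MKL1 to caMKL1, -0.13 ± 0.047 (adjusted p = 0.0282), did not pass without caMKL1 library 2 (adjusted p = 0.129), caMKL1 library 3 (0.111) or MKL1 library 1 (0.1199), nor with RLE scaling (0.0543) or in DESeq2 (0.0514). MMP9, the second gelatinase, had 6 to 9 counts per library in 0.1% FBS and 1 to 3 in 10% FBS, and at most 16 in the overexpression set.

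Of 6 membrane-type and other MMPs, 3 were higher and 2 lower in 0.1% FBS, beside 31.2% and 31.4% of all genes. MMP14, the membrane collagenase that activates pro-MMP2, had 82.7, 82.6 and 78.9 CPM in 0.1% FBS, against 61.5, 65.4 and 58.4 CPM in 10% FBS. All starved libraries were higher, by 0.40 ± 0.055 (adjusted p = 1.92e-05). With overexpression it had 114, 103 and 113 CPM with caMKL1, 112, 99.9 and 110.1 CPM with MKL1 and 129.9, 125 and 129 CPM with the control vector. Both groups were a little lower than the control vector, with a log2 fold change of -0.22 ± 0.048 (adjusted p = 0.00125) for caMKL1 and -0.23 ± 0.051 (adjusted p = 0.00430) for MKL1, and they overlapped each other. MMP15, another transmembrane MMP, had 7.72, 7.01 and 8.33 CPM in 0.1% FBS, against 20.4, 22.7 and 18.1 CPM in 10% FBS. Its log2 fold change of -1.41 ± 0.11 (adjusted p = 7.17e-08) was the lowest among the 10 MMP genes tested in starvation. With overexpression MMP15 had 20.1, 18.1 and 19.9 CPM with caMKL1, 30.7, 28.9 and 29.5 CPM with MKL1 and 35.5, 31.8 and 31.0 CPM with the control vector. The caMKL1 libraries were the lowest, with a log2 fold change of -0.75 ± 0.074 (adjusted p = 7.19e-07) against the control vector and -0.62 ± 0.071 (adjusted p = 1.33e-06) against MKL1, while MKL1 against the control vector did not pass (adjusted p = 0.186).

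Among the others, MMP16, a transmembrane MMP, rose in 0.1% FBS by 0.43 ± 0.066 (adjusted p = 4.88e-05) and passed in no overexpression comparison. MMP19, a secreted MMP that cuts basement membrane proteins, fell in 0.1% FBS, with a log2 fold change of -0.87 ± 0.13 (adjusted p = 4.91e-05), and passed in no other comparison; 814 of its exonic bases are shared with TMEM198B on the opposite strand. MMP17, anchored by a glycolipid, was lower with caMKL1, with a log2 fold change of -0.25 ± 0.068 (adjusted p = 0.00522) against the control vector and -0.40 ± 0.062 (adjusted p = 3.96e-05) against MKL1. MMP24, a membrane MMP, passed in starvation by 1.13 ± 0.42 (adjusted p = 0.0288), on 4 to 19 counts per library, and 799 of its exonic bases lie opposite MMP24OS, which had 389 to 645 counts in the same libraries. That call did not pass without 0.1% FBS library 1 (adjusted p = 0.0931) or 3 (0.0981), without 10% FBS library 1 (0.0696) or 2 (0.124), or in DESeq2 (0.109).

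**Figure D2:**
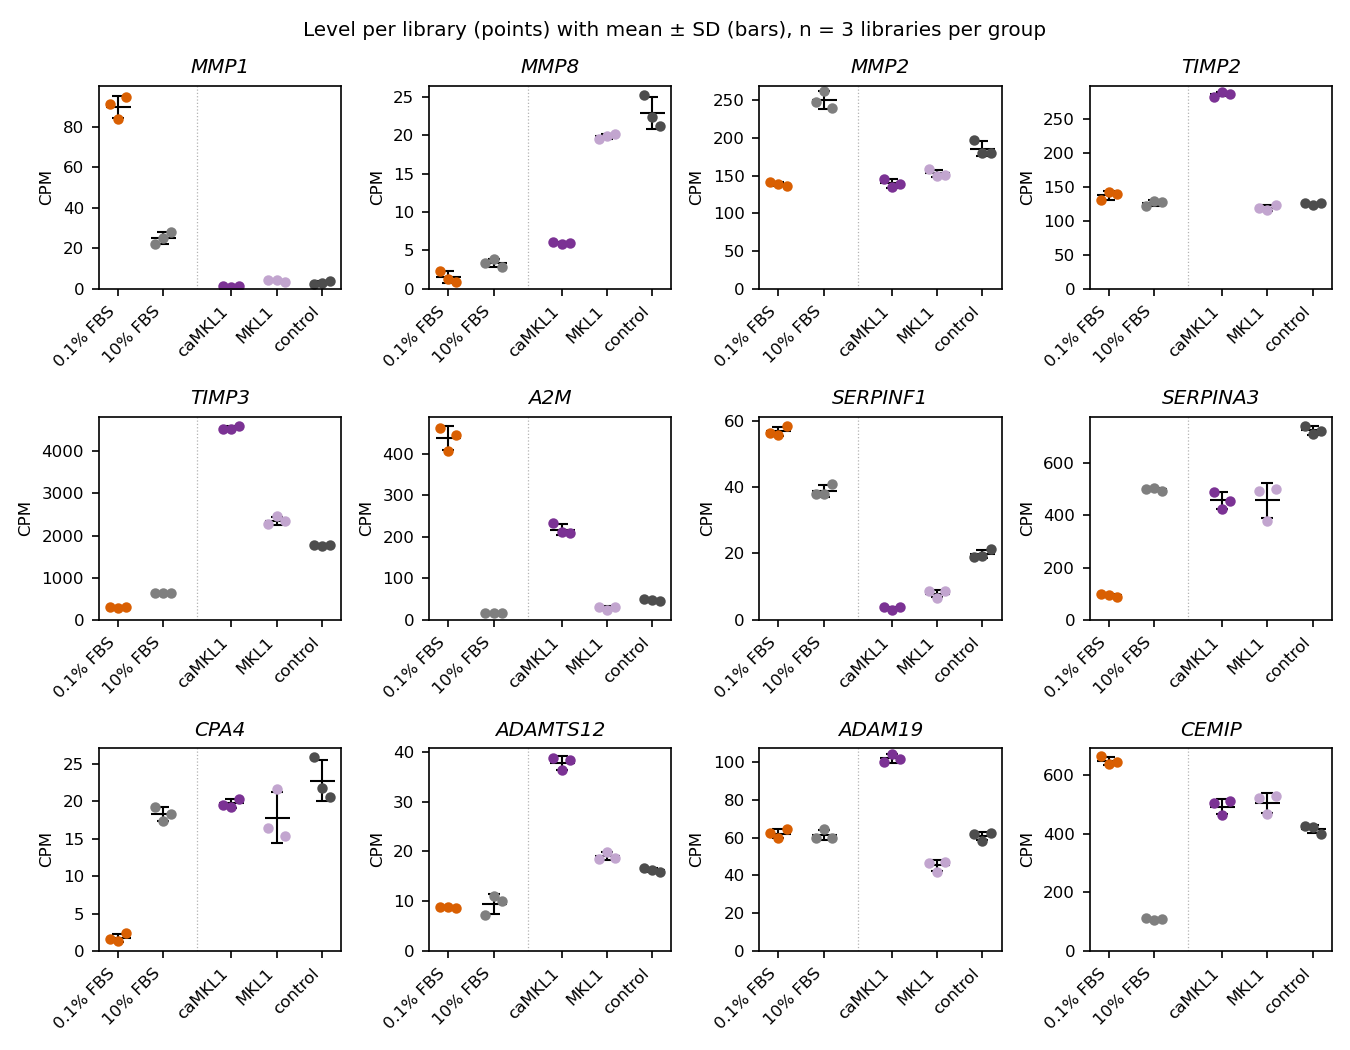
CPM of 12 members in every library (points), with the mean and SD of the 3 libraries of a group (bars); 0.1% and 10% FBS stand left of the dotted line, caMKL1, MKL1 and the control vector right of it, and the 2 sides were scaled separately. TIMP2 sat at 283, 289.8 and 288 CPM with caMKL1 while its other 4 groups lay between 115.9 and 142.7 CPM.

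The inhibitors of MMPs did not follow one direction in starvation, but all 4 of TIMP1, TIMP2, TIMP3 and RECK rose with caMKL1, where 30.5% of all genes did, with a median log2 fold change of 0.91. TIMP3, the TIMP that binds matrix and also inhibits ADAM17, had 4542, 4539.6 and 4599.8 CPM with caMKL1, 2269.5, 2457 and 2343 CPM with MKL1 and 1786, 1756 and 1783 CPM with the control vector. The 3 groups were stepped with no overlap, and TIMP3 rose by 1.36 ± 0.033 (adjusted p = 1.21e-13) with caMKL1 and by 0.43 ± 0.039 (adjusted p = 9.03e-06) with MKL1, with 0.95 ± 0.035 (adjusted p = 2.55e-13) between caMKL1 and MKL1. In starvation it fell, with 306, 283 and 297 CPM in 0.1% FBS, against 634, 632 and 642 CPM in 10% FBS, and the libraries of a group were close to each other. The log2 fold change there was -1.11 ± 0.040 (adjusted p = 1.9e-11). TIMP3 lies at chr22:32801701-32863043 on the plus strand.

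TIMP2, which blocks MMP2 and also helps MMP14 to activate it, had 283, 289.8 and 288 CPM with caMKL1, 119, 116 and 123 CPM with MKL1 and 127, 124 and 126 CPM with the control vector. It thus rose with the active form, by 1.19 ± 0.039 (adjusted p = 3.04e-12) against the control vector and 1.27 ± 0.039 (adjusted p = 1.49e-14) against MKL1, while MKL1 against the control vector did not pass (adjusted p = 0.369). In starvation it had 130.4, 143 and 140.3 CPM in 0.1% FBS, against 122, 130.1 and 128 CPM in 10% FBS. This difference, 0.12 ± 0.049 (adjusted p = 0.0473), only just passed, and it did not pass without 0.1% FBS library 2 (adjusted p = 0.201) or 3 (0.150), without 10% FBS library 1 (0.201), without a filter on low counts (0.0648) or in DESeq2 (0.0718).

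TIMP1, a soluble TIMP, rose in both sets: it had 250.3, 265 and 275 CPM in 0.1% FBS, against 182, 198 and 182 CPM in 10% FBS. The log2 fold change was 0.49 ± 0.050 (adjusted p = 8.58e-07), with no overlap. It had 368, 374.6 and 392 CPM with caMKL1, 362, 355 and 379.6 CPM with MKL1 and 295, 276 and 275 CPM with the control vector. Both overexpression groups were above the control vector, by 0.42 ± 0.043 (adjusted p = 8.75e-07) for caMKL1 and 0.39 ± 0.045 (adjusted p = 5e-05) for MKL1, and they overlapped each other (adjusted p = 0.357). RECK, a membrane-anchored MMP inhibitor, had 8.64, 7.63 and 10.3 CPM with caMKL1, 8.59, 7.90 and 8.65 CPM with MKL1 and 5.09, 4.53 and 7.37 CPM with the control vector. It rose by 0.63 ± 0.17 (adjusted p = 0.00408) with caMKL1 and by 0.58 ± 0.15 (adjusted p = 0.0113) with MKL1, although control vector library 3 stood near the other groups.

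Per length, in the authors' FPKM, the 12 MMP genes summed to 163 ± 2.63 in 0.1% FBS and 154 ± 1.295 in 10% FBS (mean ± SD, n = 3). What filled that sum differed: MMP2 made up 30.9 ± 0.648% of it in 0.1% FBS and 56.4 ± 1.17% in 10% FBS, and MMP1 had 46.0 ± 2.70 FPKM in 0.1% FBS and 12.5 ± 1.48 FPKM in 10% FBS. The 3 TIMP genes summed to 1529 ± 22.5 FPKM with caMKL1, 1047 ± 21.5 with MKL1 and 782 ± 11.7 with the control vector. TIMP3 was 63.5 ± 0.522% of this sum with caMKL1, 50.3 ± 1.52% with MKL1 and 49.1 ± 0.783% with the control vector. The ratio of the TIMP sum to the MMP sum was 11.9 ± 0.521 with caMKL1, 6.95 ± 0.342 with MKL1 and 4.75 ± 0.0404 with the control vector; the groups did not overlap. It was 2.76 ± 0.128 in 0.1% FBS and 2.67 ± 0.0537 in 10% FBS, where the groups overlapped. These sums are descriptions with no test, and a ratio of transcripts is not a ratio of active proteins.

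**Figure D3:**
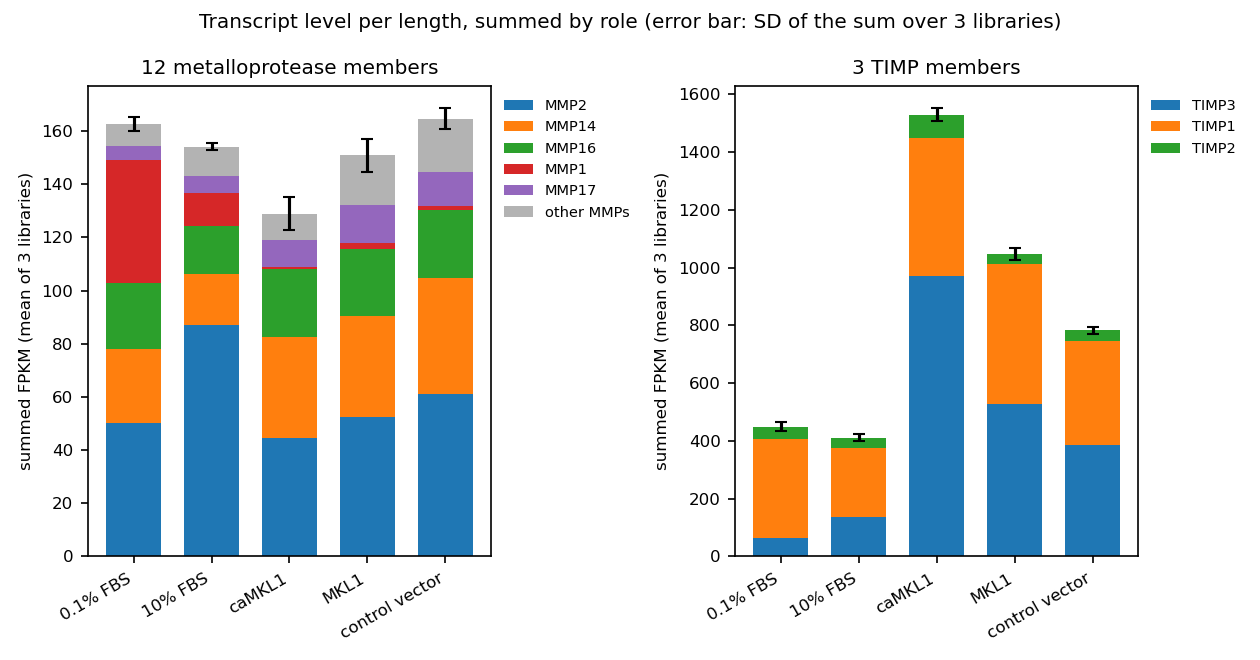
Summed FPKM of the 12 MMP genes (left) and the 3 TIMP genes (right) in each group, as bars of the mean over 3 libraries split by gene, with the SD of the sum. The MMP bars lie between 129.0 and 164.7 FPKM, while the TIMP bars reach 1529 FPKM with caMKL1 and 782.5 FPKM with the control vector.

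Of the plasminogen activators, tissue plasminogen activator (PLAT) was the one these cells expressed, and it was lower in 0.1% FBS, with caMKL1 and with MKL1. It had 59.1, 58.3 and 58.5 CPM in 0.1% FBS, against 102, 106 and 102 CPM in 10% FBS. The groups lay far apart for their spread, with a log2 fold change of -0.82 ± 0.048 (adjusted p = 3.47e-09). It had 94.0, 97.5 and 99.8 CPM with caMKL1, 128, 133 and 139 CPM with MKL1 and 173, 159 and 155 CPM with the control vector. The 3 groups formed steps without overlap, at -0.74 ± 0.050 (adjusted p = 1.37e-08) for caMKL1 and -0.27 ± 0.052 (adjusted p = 0.00201) for MKL1 against the control vector, and -0.46 ± 0.050 (adjusted p = 7.38e-07) between caMKL1 and MKL1. Urokinase (PLAU) had 0.356, 0.599 and 1.07 CPM in 0.1% FBS, against 1.29, 1.08 and 0.705 CPM in 10% FBS, that is 6 to 22 counts per library; the groups overlapped and the test did not pass (-0.65 ± 0.41 (adjusted p = 0.176)). In the overexpression set PLAU had 2 to 10 counts per library and was not tested.

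PLAUR, the receptor that holds urokinase on the cell surface, had 52.7, 51.4 and 53.0 CPM in 0.1% FBS, against 43.6, 53.0 and 41.2 CPM in 10% FBS. One library of 10% FBS, library 2, reached the starved level, and the difference of 0.19 ± 0.079 (adjusted p = 0.0518) missed the threshold. Without that library it was 0.30 with an adjusted p of 0.000366, and it also passed with RLE scaling (0.0448), library totals (0.0242), either other filter (0.0451 and 0.0484) and a replicate block (0.0159). With overexpression PLAUR had 41.4, 37.5 and 40.1 CPM with caMKL1, 44.96, 51.3 and 46.6 CPM with MKL1 and 56.0, 54.5 and 56.5 CPM with the control vector. It fell with caMKL1, with a log2 fold change of -0.49 ± 0.056 (adjusted p = 3.17e-06) against the control vector and -0.26 ± 0.059 (adjusted p = 0.00138) against MKL1. The difference with MKL1, -0.21 ± 0.058 (adjusted p = 0.0145), did not pass without MKL1 library 1 (adjusted p = 0.0745) or 3 (0.0709).

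Of the 3 member serpins tested, 1 was higher and 2 lower in 0.1% FBS, beside 31.2% and 31.4% of all genes. All 3 were lower with caMKL1, beside 33.1% of all genes, and 2 were lower with MKL1, beside 15.4%. SERPINE2, protease nexin-1, an inhibitor of thrombin and plasminogen activators, was the member with the highest level per length in all 5 groups, at 1627 ± 52.2 FPKM in 0.1% FBS and 1769 ± 41.4 FPKM in 10% FBS, and 1639 ± 35.1 FPKM with caMKL1, 1922 ± 47.5 FPKM with MKL1 and 1944 ± 21.5 FPKM with the control vector. It was slightly lower in 0.1% FBS, with a log2 fold change of -0.15 ± 0.033 (adjusted p = 0.00104), and with caMKL1, with a log2 fold change of -0.21 ± 0.034 (adjusted p = 8.32e-05) against the control vector and -0.16 ± 0.033 (adjusted p = 0.000773) against MKL1. SERPINA3, antichymotrypsin, an acute-phase serpin that inhibits cathepsin G and chymase, had 98.7, 93.3 and 88.1 CPM in 0.1% FBS, against 503, 504 and 493 CPM in 10% FBS. The starved libraries were 5.35 times lower, a log2 fold change of -2.42 ± 0.048 (adjusted p = 2.33e-14). In the other set SERPINA3 had 490.3, 426 and 456 CPM with caMKL1, 493, 379 and 501 CPM with MKL1 and 744, 710.2 and 725 CPM with the control vector. Both overexpression groups fell, with a log2 fold change of -0.67 ± 0.048 (adjusted p = 2.56e-08) for caMKL1 and -0.65 ± 0.080 (adjusted p = 9e-05) for MKL1, and overlapped each other (adjusted p = 0.996). SERPINA3 shares 1592 exonic bases with another annotated gene, AL049839.2, on the same strand, so that a counter could split its reads.

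SERPINF1, pigment epithelium-derived factor, a serpin that inhibits no protease and is known to restrain vessel growth, had 3.81, 2.98 and 3.77 CPM with caMKL1, 8.59, 6.55 and 8.65 CPM with MKL1 and 19.1, 19.2 and 21.2 CPM with the control vector. The groups did not overlap, and SERPINF1 fell by 2.49 ± 0.11 (adjusted p = 9.67e-11) with caMKL1 and fell by 1.298 ± 0.10 (adjusted p = 2.49e-06) with MKL1; between caMKL1 and MKL1 the log2 fold change was -1.17 ± 0.14 (adjusted p = 1.63e-06). In starvation it rose, with 56.3, 55.7 and 58.3 CPM in 0.1% FBS, against 37.8, 37.9 and 40.8 CPM in 10% FBS. The log2 fold change was 0.55 ± 0.057 (adjusted p = 1.18e-06). The gene lies at chr17:1761959-1777574. SERPINB2, a plasminogen activator inhibitor, had at most 7 counts in any library.

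A2M, alpha-2-macroglobulin, a secreted protein that cages proteases of every class, made the largest change of all members in starvation. It had 461, 406 and 446 CPM in 0.1% FBS, against 17.6, 17.7 and 17.0 CPM in 10% FBS. That is 25.1 times more, a log2 fold change of 4.65 ± 0.063 (adjusted p = 1.1e-15). Per length A2M thereby held rank 3 of the 37 members in 0.1% FBS and rank 21 in 10% FBS. With overexpression it had 233, 211 and 209 CPM with caMKL1, 31.6, 23.2 and 30.9 CPM with MKL1 and 51.4, 48.3 and 45.3 CPM with the control vector. The active form and MKL1 lay on opposite sides of the control vector: A2M rose by 2.17 ± 0.058 (adjusted p = 3.33e-13) with caMKL1 and fell by 0.74 ± 0.095 (adjusted p = 0.000130) with MKL1, and caMKL1 differed from MKL1 by 2.92 ± 0.083 (adjusted p = 5.04e-15). A2M lies at chr12:9067664-9116229 on the minus strand, and 561 of its exonic bases lie opposite A2M-AS1; the sources used here do not say whether counting used strand.

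CPA4 and CEMIP moved in opposite directions in starvation. CPA4, a secreted carboxypeptidase, had 1.54, 1.32 and 2.35 CPM in 0.1% FBS, against 19.3, 17.4 and 18.3 CPM in 10% FBS. It fell by 3.42 ± 0.16 (adjusted p = 2.73e-10), about 10.7 times, and the libraries did not overlap. CEMIP, a protein that depolymerises hyaluronan, had 665, 637 and 644 CPM in 0.1% FBS, against 111, 105 and 108 CPM in 10% FBS. It rose by 2.59 ± 0.043 (adjusted p = 4.8e-15), about 6.01 times. MESD, which shares 224 exonic bases with CEMIP on the opposite strand, had 919 to 1120 counts in 0.1% FBS and 1100 to 1220 in 10% FBS.

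With overexpression CEMIP had 504, 464 and 511 CPM with caMKL1, 523, 466 and 529 CPM with MKL1 and 426, 422 and 400.4 CPM with the control vector. The rises were 0.25 ± 0.045 (adjusted p = 0.000237) for caMKL1 and 0.30 ± 0.051 (adjusted p = 0.000836) for MKL1, and both groups overlapped each other. CPA4 had 19.6, 19.2 and 20.4 CPM with caMKL1, 16.4, 21.7 and 15.3 CPM with MKL1 and 25.9, 21.8 and 20.6 CPM with the control vector. Control vector library 1 was the highest. The differences were -0.21 ± 0.086 (adjusted p = 0.0498) for caMKL1 and -0.34 ± 0.12 (adjusted p = 0.0401) for MKL1. Without that library they were -0.08 (adjusted p = 0.387) and -0.24 (0.116), and neither passed. The caMKL1 difference also missed the threshold without any single caMKL1 library (0.0693 to 0.133), with RLE scaling (0.0804), a stricter filter (0.0559) or the fit of 9 libraries (0.109), and in DESeq2 (0.150). The MKL1 difference missed it without MKL1 library 1 (0.142) or 3 (0.179) and on library totals (0.0571). CST3, cystatin C, an inhibitor of cysteine cathepsins, rose in 0.1% FBS by 0.24 ± 0.067 (adjusted p = 0.00609) and passed in no other comparison.

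The 250 bases before the RefSeq starts of CPA4 and CEMIP (GRCh38.p14, plus strand, 5′ to 3′) are shown because these genes moved most in opposite directions among members with an entry in that table; capitals mark TGACTCA on either strand (AP-1), TATAAA on the gene's strand, and GGAATG on either strand (TEAD).
CPA4, chr7:130292911-130293160: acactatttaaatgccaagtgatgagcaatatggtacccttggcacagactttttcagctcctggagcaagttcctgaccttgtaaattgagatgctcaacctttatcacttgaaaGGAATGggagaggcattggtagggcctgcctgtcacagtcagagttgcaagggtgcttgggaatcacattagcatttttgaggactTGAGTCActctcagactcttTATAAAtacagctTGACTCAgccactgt
CEMIP, chr15:80779120-80779369: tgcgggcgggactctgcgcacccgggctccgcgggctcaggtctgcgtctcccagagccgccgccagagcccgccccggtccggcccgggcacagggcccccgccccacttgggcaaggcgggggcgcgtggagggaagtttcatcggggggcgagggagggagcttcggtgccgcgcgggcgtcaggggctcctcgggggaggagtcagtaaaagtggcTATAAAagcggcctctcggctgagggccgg
In CPA4 the AP-1 letters occur 48 to 42 and 15 to 9 bases before the start, TATAAA between them at 28 to 23, and GGAATG at 134 to 129. CEMIP holds TATAAA 30 to 25 bases before the start and none of the others. Both RefSeq starts lie inside the GENCODE spans of the genes, which begin at 130293134 for CPA4 and 80779343 for CEMIP. The distances hold for the RefSeq starts only. TGACTCA was found in 4.20% of the 35116 promoters, TATAAA in 6.80% and GGAATG in 11.9%. A CArG box, which can itself contain TATAAA, was in 1.16% of promoters and in none of the 22 members with an entry (15 had none); a match is a description, and these windows are short.

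The ADAMTS proteases, secreted enzymes that cut versican, aggrecan and other matrix components, did not all move alike. With caMKL1 4 of the 5 members tested passed as higher, ADAMTS4 only in some settings, and none as lower, beside 30.5% of all genes higher; of 8 further ADAMTS genes tested, 2 were higher and 4 lower. ADAMTS12, known to cut cartilage oligomeric matrix protein, had 38.8, 36.3 and 38.4 CPM with caMKL1, 18.4, 19.9 and 18.7 CPM with MKL1 and 16.6, 16.2 and 15.95 CPM with the control vector. It rose by 1.22 ± 0.064 (adjusted p = 7.84e-10) with caMKL1 and differed by 0.99 ± 0.062 (adjusted p = 3.94e-10) between caMKL1 and MKL1. The rise with MKL1, 0.25 ± 0.071 (adjusted p = 0.0178), did not pass without MKL1 library 2 (adjusted p = 0.0565) or 3 (0.0512), without control vector library 2 (0.0656) or 3 (0.0627), or in DESeq2 (0.0832). ADAMTS6, a member of the same family, was rarer, with 4.79, 4.76 and 4.08 CPM with caMKL1, 2.75, 2.36 and 2.84 CPM with MKL1 and 1.94, 2.02 and 1.72 CPM with the control vector. It rose by 1.27 ± 0.17 (adjusted p = 1.28e-05) with caMKL1 and stood 0.77 ± 0.16 (adjusted p = 0.000558) above MKL1, while 0.51 ± 0.19 (adjusted p = 0.0540) with MKL1 missed the threshold and passed with library totals (0.0437), a stricter filter (0.0470) and the fit of 9 libraries (0.0363). In starvation ADAMTS6 had 2.55, 2.46 and 1.85 CPM in 0.1% FBS, against 2.82, 2.76 and 4.10 CPM in 10% FBS, and ADAMTS12 had 8.73, 8.80 and 8.54 CPM in 0.1% FBS, against 7.16, 11.0 and 10.1 CPM in 10% FBS; neither passed.

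Starvation raised other ADAMTS genes. ADAMTS9, a versican-cutting enzyme, had 14.1, 12.8 and 14.9 CPM in 0.1% FBS, against 4.404, 3.31 and 5.00 CPM in 10% FBS. ADAMTS1, another, had 26.0, 23.6 and 31.7 CPM in 0.1% FBS, against 10.3, 7.45 and 9.16 CPM in 10% FBS. Neither gene's groups overlapped, and the log2 fold changes were 1.72 ± 0.14 (adjusted p = 1.13e-07) for ADAMTS9 and 1.59 ± 0.13 (adjusted p = 8.34e-08) for ADAMTS1. With overexpression ADAMTS9 had 8.89, 8.55 and 9.14 CPM with caMKL1, 9.26, 6.31 and 10.0 CPM with MKL1 and 6.04, 5.98 and 5.69 CPM with the control vector. It rose by 0.59 ± 0.10 (adjusted p = 0.000166) with caMKL1; the rise of 0.56 ± 0.15 (adjusted p = 0.0125) with MKL1 did not pass without MKL1 library 1 (0.0594) or 3 (0.0777). ADAMTS1 had 13.7, 13.0 and 12.9 CPM with caMKL1, 15.9, 13.0 and 15.9 CPM with MKL1 and 14.5, 15.8 and 13.1 CPM with the control vector, and passed in no overexpression comparison. ADAMTS4, an aggrecanase, fell by 0.60 ± 0.13 (adjusted p = 0.000860) in 0.1% FBS; its rise of 0.30 ± 0.12 (adjusted p = 0.0397) with caMKL1 did not pass without caMKL1 library 1 (0.230), control vector library 2 (0.0754) or 3 (0.0729), on library totals (0.0574), with a replicate block (0.0509) or in DESeq2 (0.150). ADAMTS5, the other aggrecanase, had at most 6 counts in any library.

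Among the ADAM sheddases, which release membrane proteins from the cell surface, ADAM19, known to shed neuregulins, had the largest change of the 4 members with caMKL1 and with MKL1, but did not pass in starvation. It had 99.8, 104 and 101 CPM with caMKL1, 46.7, 41.9 and 47.1 CPM with MKL1 and 61.9, 58.1 and 62.2 CPM with the control vector. The control vector stood between the others: ADAM19 rose by 0.75 ± 0.048 (adjusted p = 7.02e-09) with caMKL1, fell by 0.40 ± 0.060 (adjusted p = 0.000315) with MKL1, and differed by 1.17 ± 0.052 (adjusted p = 3.68e-12) between caMKL1 and MKL1. In starvation it had 62.2, 59.6 and 64.4 CPM in 0.1% FBS, against 60.0, 64.6 and 59.7 CPM in 10% FBS, with overlap. ADAM10, the main sheddase of Notch and cadherins, fell with caMKL1, with a log2 fold change of -0.26 ± 0.047 (adjusted p = 0.000212) against the control vector and -0.31 ± 0.045 (adjusted p = 2.22e-05) against MKL1. ADAM17, the tumour necrosis factor convertase, rose by 0.44 ± 0.067 (adjusted p = 4.43e-05) in 0.1% FBS; 1323 of its exonic bases lie opposite IAH1, which had 196 to 249 counts in 0.1% FBS and 326 to 349 in 10% FBS. Its small difference of -0.17 ± 0.053 (adjusted p = 0.0133) with caMKL1 did not pass without caMKL1 library 1 (0.0527) or 2 (0.0644) or in DESeq2 (0.0553). That of -0.13 ± 0.050 (adjusted p = 0.0421) against MKL1 did not pass without caMKL1 library 1 (0.179) or 2 (0.153), MKL1 library 2 (0.0790) or 3 (0.147) or control vector library 2 (0.0542), nor with RLE scaling (0.0691), no filter (0.0565), the 6 MKL1 and caMKL1 libraries alone (0.0551) or DESeq2 (0.124). ADAM12 rose by 0.33 ± 0.093 (adjusted p = 0.00607) in 0.1% FBS, and its difference of -0.29 ± 0.11 (adjusted p = 0.0488) with MKL1 did not pass without MKL1 library 2 (0.170) or 3 (0.149) or control vector library 1 (0.0974) or 2 (0.115), on library totals (0.0766) or in DESeq2 (0.0745).

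Starvation and caMKL1 have separate controls, and 31 members were tested in both; 18 passed in both, beside 42.2% of the 13014 genes tested in both. Of these, 5 were higher in both, beside 12.5% of all genes (TIMP1, TIMP2, A2M, ADAMTS9 and CEMIP) and 7 lower in both, beside 16.1% (MMP2, MMP8, MMP15, PLAT, SERPINE2, SERPINA3 and CPA4). In opposite directions, MMP1, MMP14, SERPINF1 and ADAM17 were higher in 0.1% FBS and lower with caMKL1, as were 7.04% of all genes, and TIMP3 and ADAMTS4 lower in 0.1% FBS and higher with caMKL1, as were 6.6%. The calls of TIMP2 in starvation and of CPA4, ADAMTS4 and ADAM17 with caMKL1 are the ones named above that did not pass without single libraries.

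**Figure D4:**
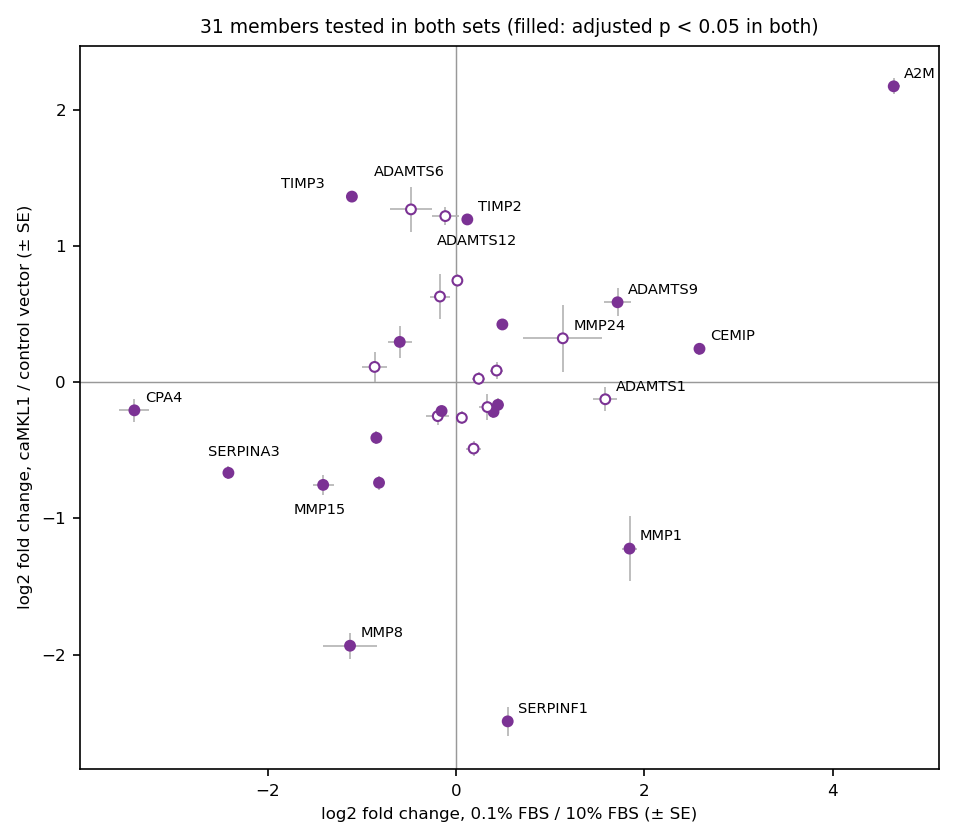
Log2 fold change in starvation (x axis, 0.1% over 10% FBS) and with caMKL1 (y axis, over the control vector) for the 31 members tested in both, with SE bars; filled points passed in both, and names mark members past 1 in size on either axis. A2M lies at the upper right, SERPINF1 (0.55 and -2.49) and MMP1 (1.84 and -1.22) at the lower right, and TIMP3 (-1.11 and 1.36) at the upper left.

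Beyond the members, 79 further genes of the same pathways were taken from lists. In starvation 51 were tested, 11 higher and 18 lower; with caMKL1 49 were tested, 19 higher and 14 lower; with MKL1 8 were higher and 7 lower of 49. These counts stand beside 62.6% of all genes called in starvation, 63.6% with caMKL1 and 31.2% with MKL1, and are near those shares. By list, the calls in starvation were 1 of 4 tested other MMPs (higher), 8 of 13 other plasminogen system genes and serpins (3 higher, 5 lower), 3 of 9 other ADAMTS (all lower), 4 of 6 other ADAMs (2 higher, 2 lower), 3 of 5 other inhibitors (2 higher, 1 lower), 6 of 8 cysteine cathepsins (2 higher, 4 lower) and 4 of 6 hyaluronan turnover genes (1 higher, 3 lower). The inhibitor CD109, a membrane relative of A2M, rose in 0.1% FBS by 1.28 ± 0.063 (adjusted p = 5.01e-10). MMP12, macrophage elastase, which neighbours MMP3 on chromosome 11, rose by 1.53 ± 0.25 (adjusted p = 8.08e-05). ANXA2, the annexin that holds plasminogen at the cell surface, fell in 0.1% FBS, with a log2 fold change of -1.44 ± 0.042 (adjusted p = 1.66e-12), and SERPINA5, protein C inhibitor, fell by 1.72 ± 0.099 (adjusted p = 2.63e-09). The lower ADAMTS genes included ADAMTS16 at -1.79 ± 0.24 (adjusted p = 1.51e-05) and ADAMTS15 at -1.16 ± 0.14 (adjusted p = 5.8e-06). CEMIP2, a hyaluronidase related to CEMIP, rose by 0.62 ± 0.050 (adjusted p = 8.28e-08) and HYAL2, another hyaluronidase, fell by 0.59 ± 0.078 (adjusted p = 1.4e-05) in 0.1% FBS.

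With caMKL1, 8 of 12 tested genes among the other plasminogen system genes and serpins were higher and none lower, beside 30.5% of all genes higher and 33.1% lower. Of the remaining lists, 1 of 4 other MMPs was higher and 1 lower, 2 of 8 other ADAMTS higher and 4 lower, 1 of 6 other ADAMs higher and 3 lower, 3 of 5 other inhibitors higher, 4 of 8 cysteine cathepsins higher and 3 lower, and 3 of 6 hyaluronan turnover genes lower. The lower MMP was MMP13, collagenase-3, named here after its values were seen, with 1 count in each caMKL1 library, 5 to 8 counts per library with MKL1 and 11 to 22 with the control vector (adjusted p = 9.77e-05 for caMKL1 and 0.0214 for MKL1 against the control vector). SERPIND1, heparin cofactor II, rose by 1.55 ± 0.10 (adjusted p = 1.01e-08) with caMKL1 and by 1.11 ± 0.12 (adjusted p = 2.98e-05) with MKL1, and LRP1, the receptor that clears protease and inhibitor complexes, by 0.67 ± 0.048 (adjusted p = 2.36e-08) and 0.33 ± 0.055 (adjusted p = 0.000747). TFPI2, a Kunitz inhibitor of plasmin and MMPs, rose by 1.497 ± 0.066 (adjusted p = 1.08e-10) with caMKL1 and by 0.74 ± 0.080 (adjusted p = 3.48e-05) with MKL1. ADAM9 rose by 0.94 ± 0.043 (adjusted p = 1.69e-10) and ADAM23, which lacks protease activity, fell by 1.12 ± 0.060 (adjusted p = 9.61e-10) with caMKL1. ADAMTS2, the procollagen N-proteinase, rose by 1.11 ± 0.21 (adjusted p = 0.000313). Of the cysteine cathepsins CTSZ fell by 0.57 ± 0.042 (adjusted p = 3.46e-08) and CTSC fell by 0.32 ± 0.039 (adjusted p = 7.46e-06) with caMKL1, whereas CTSC rose by 0.27 ± 0.043 (adjusted p = 0.000467) with MKL1. CEMIP2 and HYAL2 were lower with caMKL1, with a log2 fold change of -0.48 ± 0.039 (adjusted p = 1.01e-07) and -0.44 ± 0.064 (adjusted p = 3.4e-05).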

How the data were processed

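Polyadenylated RNA of 15 A375 libraries was sequenced after Trizol extraction and NEBNext Ultra library preparation, per the labels' protocols. The authors deposited a table per pair of groups, with read counts, FPKM, their own log2 fold changes and p-values for every gene and comparison, per the file headers. The tools named, per the submitters' processing notes, are RSEM, DESeq2, StringTie 1.3.1, Bowtie2 2.2.8 and HISAT2 2.2.4, with the GRCh38 genome. Their roles, the annotation release and the strand of counting are not given there. As RSEM is named, the deposited counts can be rounded estimated counts. The deposited FPKM values per library hold zeros, and the authors' mean FPKM per group differed from the means of these values by at most 0.001. The authors' log2 fold changes and p-values were not used. No column of per-sample values was left unmapped (0).

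For testing, edgeR 4.0.16 (R 4.3.3) was run on the counts (TMM, filterByExpr, glmQLFTest, two-sided) with Benjamini-Hochberg adjustment over all genes and a threshold of 0.05: starvation, MKL1 and caMKL1 on their own 6 libraries, caMKL1 against MKL1 on all 9 overexpression libraries. The SE is the absolute log2 fold change over the square root of F. CPM were TMM-scaled within a set, so levels are compared within the 6 starvation and within the 9 overexpression libraries; between genes, levels were compared per length in FPKM. The control vector columns were identical in both tables for all 20323 genes. The code was tested on simulated counts.

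The members, the 79 further genes and the rules were chosen with earlier results of these data known. Values in every library were given for members with an adjusted p under 0.05, a log2 fold change of at least 1 in size and a mean of at least 1 CPM in a comparison, and for MMP2, MMP14, TIMP1, TIMP2, TIMP3, PLAU, PLAUR and PLAT; RECK and CD68 were added after their values were seen. From the further lists (other MMPs, other plasminogen system genes and serpins, other ADAMTS, other ADAMs, other inhibitors, cysteine cathepsins, hyaluronan turnover) up to 2 genes a comparison with the smallest p, among those past the threshold with a mean of at least 1 CPM, were eligible, and a choice of these is named; MMP13 and CD14 fall outside this and were added after their values were seen. Alternatives were RLE scaling, library totals, other filters, DESeq2 1.42.0, a replicate block, other sets of libraries in the fit, and leaving out each library. Replicates within a group differed by more than counting noise, with a chi-square per gene of 1.81 to 8.37. Positions and overlaps come from a GENCODE annotation of GRCh38, and promoters from RefSeq (GRCh38.p14), matched by symbol for 22 of 37 members.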

Additional observations from a re-analysis of the deposited data

How the results depend on the processing

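No member's call turned round under any alternative run. Members called numbered 23 to 25 in starvation, 11 to 17 with MKL1, 22 to 25 with caMKL1 and 15 to 20 between caMKL1 and MKL1 when each library was left out in turn, and genes called 7463 to 8412, 2595 to 4094, 7829 to 8822 and 6194 to 7741; the low of 2595, against 4182 with all libraries, came without MKL1 library 3, and the cause was not tested. On library totals the genes called split into 2534 higher and 1683 lower with MKL1, against 2114 and 2068 with TMM, and into 2750 higher and 4942 lower between caMKL1 and MKL1, against 3463 and 3701. DESeq2 called 23, 14, 23 and 16 members in the 4 comparisons, in the order above. Same-numbered libraries of 2 groups correlated from -0.034 to 0.148 in their deviations, with at least 1 pair under 0.1 in each comparison. With 3 libraries per group, these values cannot decide whether replicate numbers pair the libraries. With the replicate block 26, 17, 24 and 18 members and 8668, 4569, 8710 and 7396 genes were called. A tally of members that did not pass covered 38 pairs of member and comparison. In it 29 of 529 values changed sign, with a lowest adjusted p of 0.240, and 16 passed. It left out MMP1, MMP8 and ADAMTS6 with MKL1 and PLAUR and PLAU in starvation. Of these all but PLAU passed in some runs, as given above. Members under about 20 counts a library (MMP3, MMP9, MMP10 and PLAU in part, SERPINB2, ADAMTS5, MMP24) are limited by depth. So is MMP8 in 0.1% FBS, at 12 to 40 counts a library.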
